A study of Mus musculus with 6 samples.

Results

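Oxidative phosphorylation couples the oxidation of reduced cofactors to ATP synthesis across the inner mitochondrial membrane. The 40 genes described here encode nuclear subunits of its later steps: 4 of complex II (succinate dehydrogenase), 9 of complex III (the cytochrome bc1 complex), the electron carrier cytochrome c, 11 of complex IV (cytochrome c oxidase) and 15 of the ATP synthase (complex V). They were taken by symbol from a list that was drawn up with earlier results of these data known. All 40 were found among the 25353 genes of the deposited table. The list covers the common isoforms and is not every subunit of these complexes. RNA was measured in mouse GV oocytes, which are arrested in prophase with an intact germinal vesicle, in 3 libraries titled WT and 3 titled KO, each made from 5 pooled oocytes. All mice carry the strain label C57BL/6J.

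The labels of the KO group differ among themselves. The series title and its design text give Mfn2-/-, while the genotype and the treatment protocol of the samples give Mfn1-/-. The texts give mice of 8 weeks, while the age label of every sample reads P1. Mfn2 and its relative Mfn1 encode outer-membrane GTPases that fuse mitochondria. Normalized reads of Mfn2 were 25.5, 38.1 and 32.3 in WT 1 to 3 and 5.25, 5.28 and 4.50 in KO 1 to 3, and Mfn2 fell by 2.44 on the log2 scale (adjusted p = 0.00487, limma). Mfn1 was read at 363, 299 and 360.1 in WT and at 398, 383 and 379 in KO (log2 fold change 0.19, adjusted p = 0.482), so Mfn2 and not Mfn1 was lower in the libraries titled KO. How the deletion was made, and in which cells, is not given in the sources used here. Nothing in the labels says that the 3 pools of a group came from separate mice, so p-values measure only the spread between these pools.

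Complex II passes electrons from succinate to ubiquinone and is also an enzyme of the citric acid cycle. Complex III passes them on to cytochrome c, complex IV hands them to oxygen, and the ATP synthase uses the resulting proton gradient to make ATP. Growing oocytes build up a large store of mitochondria and of maternal mRNA, and they make ATP largely by oxidative phosphorylation of pyruvate that the follicle cells supply. Complexes III, IV and V also need subunits encoded in mitochondrial DNA. The table holds 0 rows from the mitochondrial chromosome, so those subunits are not analysed here.

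Each library held 6450191 to 7992598 recovered reads and 19481 to 20102 genes with reads. The 40 genes were read 58 to 4381 times in a library, so none was near the limit of detection. The 16 oocyte markers summed to 218000, 187000 and 215000 normalized reads in WT 1 to 3 and to 145000, 174000 and 191000 in KO 1 to 3. Among them 2 passed the limma test (12.5%, against 3.28% of all genes). They were Zar1 and Nlrp5, both lower in KO and both RNAs of the maternal store. The log2 fold changes of Zp1, Zp2 and Zp3 were -0.605, -0.664 and -0.669, without a call (adjusted p = 0.0759 to 0.0983, limma). With DESeq2 Ooep (adjusted p = 0.0479) and Dppa3 (0.0187), both lower in KO, also passed. Of the 16 markers 6 lay above 0. Zar1 was read at 8608, 7951 and 7470.0 in WT and at 5899, 4966 and 5557 in KO (log2 fold change -0.55, adjusted p = 0.011), a call lost without WT 1, WT 2 or KO 2 (0.0545 to 0.0604). Nlrp5 was read at 14590.0, 9445 and 12680.0 in WT and at 4413, 8332 and 8984 in KO (-0.80, adjusted p = 0.0458), a call lost with DESeq2 (0.157), with other scalings (0.0661 and 0.0929), with a pseudocount of 0.5 (0.0529) and without any 1 WT library (0.0545 to 0.166). The 11 granulosa markers summed to 523 to 816, most of it Cyp19a1 and Nr5a2, with Amh and Foxl2 at 0 to 3.33 in all 6. Of the 11, 7 were highest in WT 1, while Cyp19a1, Nr5a2, Fshr and Amh were not. Inha, Hsd17b1 and Inhba were at 171, 54.3 and 23.3 in WT 1. In the other libraries they were at 28.4 to 101, 4.65 to 13.7 and 1.86 to 9.51. Markers of theca, luteal and stromal cells were unequal: their summed levels in WT 1 were 1890 (4 theca and luteal markers) and 172 (7 stromal markers), in WT 2 and WT 3 they were 17.7 and 322, and 31.6 and 28.6, and in KO they were 9.45 to 54.0 and 8.09 to 11.6. Among them Cyp11a1, the first enzyme of steroid synthesis, was read at 604, 13.9 and 92.3 in WT and at 3.15, 5.28 and 4.50 in KO (adjusted p = 0.0135), and the matrix gene Dcn at 53.2, 28.8 and 14.8 in WT and at 8.40, 6.34 and 2.70 in KO (0.0244). Lhcgr, the luteinizing hormone receptor, was read at 16.6, 2.79 and 10.2 in WT and at 1.05, 0 and 0 in KO (0.0317). Hsd3b1, the most abundant of these markers in WT 1, was read at 1270, 0.93 and 219 in WT and at 5.25, 15.85 and 49.5 in KO. It did not pass with limma (adjusted p = 0.466) or DESeq2 (0.139) but did with edgeR (0.0371), and WT 2 was its lowest library. The call for Cyp11a1 was lost without WT 3 (0.0782), that for Dcn without WT 1, WT 2 or KO 3 (0.0674 to 0.114), and that for Lhcgr without WT 1, WT 3, KO 2 or KO 3 (0.0788 to 0.141). Insl3, Col1a2, Col3a1 and Tcf21 were at 0 in all KO libraries and in WT 2. Of the immune markers Lyz2, Cd74 and C1qa were at 24.4, 24.4 and 6.65 in WT 1 and at 0 in all KO libraries. C1qb, the most abundant of the immune markers, went the other way. It was read at 363.7, 429.6 and 331.5 in WT and at 592.4, 469.1 and 453.2 in KO (log2 fold change 0.43, adjusted p = 0.108, limma). In a principal component analysis the first component (28.9% of the variance) separated WT from KO, and the second (21.4%) held WT 1 and KO 1 apart (49.3 and -39.3). No batch is given in the labels. What part these differences have in the values below was not tested.

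Many promoters of respiratory genes carry sites for the nuclear respiratory factor NRF1, so 3 promoters are shown here: those of Atp5k and Cox6a1, the members with the smallest p-values of the list, and that of Cycs, whose fold change lay on the other side of 0. Each is printed 5′ to 3′ in the direction of the gene, from RefSeq on GRCm38.p6, and ends at or shortly before the RefSeq start site. Capitals mark the exact letters GCATGCGC on either strand. In Atp5k and Cox6a1 they form the palindrome of overlapping matches on both strands. Atp5k lies at chr5:108434419-108434649 on the minus strand, Cox6a1 at chr5:115348959-115349208 on the minus strand, and Cycs at chr6:50566570-50566819 on the minus strand. The last 30 bases of the first and the last 23 of the second lie inside the gene as GENCODE annotates it, and the third lies upstream of its gene. The genes themselves are listed at chr5:108433244-108434448, chr5:115345642-115348981 and chr6:50562563-50566538.
Atp5k: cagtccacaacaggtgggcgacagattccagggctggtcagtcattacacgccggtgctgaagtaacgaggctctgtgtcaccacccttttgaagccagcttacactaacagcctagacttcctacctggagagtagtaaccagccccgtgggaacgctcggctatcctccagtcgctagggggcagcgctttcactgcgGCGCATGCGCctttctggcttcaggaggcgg
Cox6a1: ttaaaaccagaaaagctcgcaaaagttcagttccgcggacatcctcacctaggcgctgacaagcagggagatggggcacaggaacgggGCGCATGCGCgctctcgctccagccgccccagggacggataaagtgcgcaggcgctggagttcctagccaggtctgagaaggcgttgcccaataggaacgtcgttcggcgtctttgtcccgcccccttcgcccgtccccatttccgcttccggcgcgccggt
Cycs: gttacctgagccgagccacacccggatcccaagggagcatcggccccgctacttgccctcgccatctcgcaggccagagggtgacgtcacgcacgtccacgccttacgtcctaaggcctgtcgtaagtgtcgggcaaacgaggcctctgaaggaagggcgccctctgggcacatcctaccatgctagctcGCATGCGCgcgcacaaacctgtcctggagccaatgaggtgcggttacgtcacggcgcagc

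Promoters were listed for 32 of the 40 genes. In the 250 bases before the start, GCATGCGC stood in 6 of them (Atp5g2, Atp5k, Atp5l, Cox6a1, Cycs and Sdhb), or 18.8%, against 4.02% of the promoters of 14967 genes of the table. The ETS letters CCGGAAGT, bound by GABPA, stood in 3 (Atp5h, Uqcr11 and Uqcrh; 9.4% against 5.22%). The letters TCAAGGTCA of estrogen-related receptors stood in Atp5g3 alone (3.1% against 0.36%), and the YY1 letters AAGATGGCG in Atp5j alone (3.1% against 1.07%). These are exact matches on both strands, counted once per gene. The 6 members with the NRF1 letters had these values (log2 fold change, KO against WT): Atp5k at -0.39, Cox6a1 at -0.33, Sdhb at -0.22, Atp5l at -0.15, Atp5g2 at -0.07 and Cycs at 0.22, or 0.00 with its copy added as described below.

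None of the 40 genes passed the test between KO and WT (limma-trend, smallest adjusted p = 0.08, for Atp5k), where 3.28% of the 18762 genes tested passed, 1.41% lower and 1.87% higher in KO. Fold changes were small: 32 of the 40 lay below 0 (80.0%, against 51.3% of all genes tested), with a median of -0.13 against -0.01 over all genes. An unadjusted p under 0.05 was reached by 13 of them. Of these 11 lay lower in KO (27.5%, against 8.83% of all genes) and 2 higher (5.0%, against 9.16%). All 3 KO values lay below all 3 WT values for 9 members (22.5%, against 11.7%), and above them for 2 (5.0%, against 11.5%). The members were chosen with earlier results of these data known, so these shares are a description and carry no test.

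The intervals set a limit on what could have been missed. The 95% intervals of the 40 log2 fold changes, not adjusted for their number, all lay between -0.67 (Atp5a1) and 0.96 (Uqcrc1), so none reached 1 in either direction. Standard errors ran from 0.10 to 0.30. On the recovered reads edgeR called 0 of the 40 (6.03% of all genes), with 13 at an unadjusted p under 0.05, and DESeq2 called 3, Atp5k (adjusted p = 0.0368), Cox6a1 (0.0453) and Atp5o (0.0499), or 7.5% against 7.79% of all genes. Normalized values are relative to each library, so less RNA of these genes per oocyte and more RNA of other genes cannot be told apart.

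**Figure D1:**
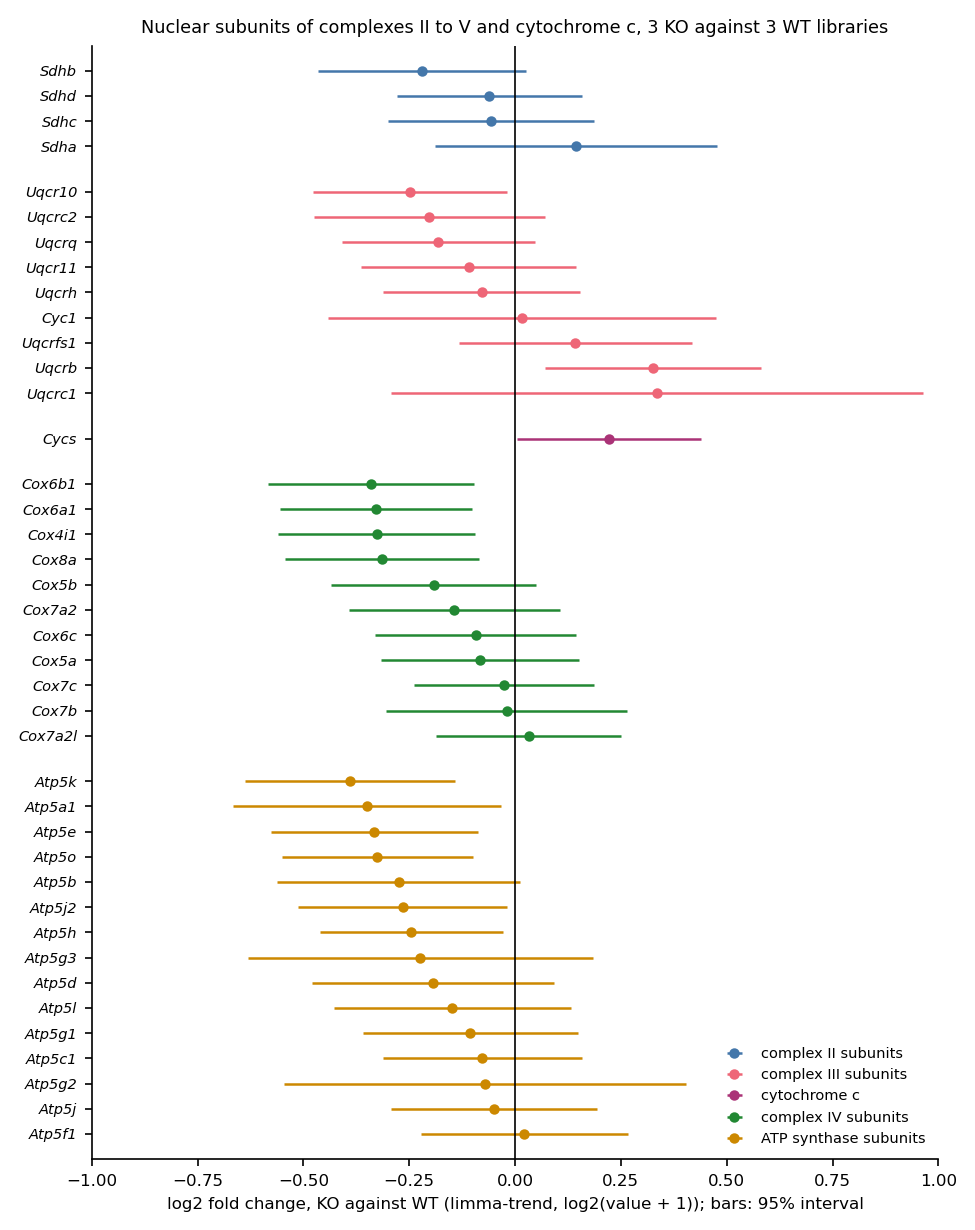
Log2 fold change of each of the 40 genes (x axis, KO against WT, limma-trend on log2(value + 1)), sorted within each complex (colours), with 95% intervals as bars. In the ATP synthase 14 of 15 points lie left of 0, in complex IV 10 of 11, in complex III 5 of 9 and in complex II 3 of 4, and no interval reaches 1 in either direction.

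The complexes differed in their medians. The median log2 fold change was -0.22 for the ATP synthase, -0.14 for complex IV, -0.08 for complex III and -0.06 for complex II, while Cycs stood at 0.22. Summed normalized reads of the 15 ATP synthase genes were 22688, 22034 and 20654 in WT and 18034, 19233 and 17982 in KO, a ratio of the means of 0.845 without overlap of the groups. The 9 genes of complex III, of which 4 lay above 0, had a ratio of 0.925, also without overlap. Their sums were 10311, 10375 and 9655 in WT and 9421, 9391 and 9246 in KO. The sums over the 11 genes of complex IV averaged 22960 (SD 1400, n = 3) in WT and 20590 (SD 1400, n = 3) in KO, and these groups overlapped. The 40 genes together summed to 61999, 62733 and 58034 in WT and to 55001, 56045 and 52191 in KO, a ratio of 0.893 without overlap. They made up 0.867%, 0.885% and 0.786% of the reads in WT 1 to 3 and 0.795%, 0.8% and 0.762% in KO 1 to 3, so that as a share of the library WT 3 lay below KO 1 and KO 2. The sums per complex were not rescaled to such shares, so their separation holds for the deposited scaling only. WT 3 held the most normalized reads of the 6 libraries, 7380280 against 6848240 to 7001424 in KO.

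In complex II no member had an unadjusted p under 0.05. Sdhb, the iron-sulfur subunit, was read at 1066, 991 and 859 in WT and at 764, 862 and 871 in KO (log2 fold change -0.22 ± 0.12 SE, adjusted p = 0.337). The groups touched, since WT 3 lay below KO 2 and KO 3. Sdha, the flavoprotein that oxidizes succinate, was read at 546, 480 and 574 in WT and at 436, 669.8 and 696 in KO. Here KO 1 was the lowest of the 6 libraries and KO 3 the highest, and the log2 fold change was 0.14 ± 0.16 (adjusted p = 0.693). Sdhc and Sdhd form the membrane anchor of the complex. Sdhd was read at 2569, 2599 and 2802 in WT and at 2456, 2822 and 2379 in KO (log2 fold change -0.06), and Sdhc averaged 713 (SD 75.3) over the WT and 683 (SD 12.5) over the KO libraries.

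Levels within complex II were far from equal. Per kb of transcript, averaged over the 6 libraries, Sdhd stood at 2120 normalized reads, Sdhb at 790.0, Sdhc at 220.0 and Sdha at 195. Sdhc and Sdha, the lowest of the 4, overlapped between libraries, with Sdhc at 198 to 244 per kb and Sdha at 240.0 in KO 3.

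In complex III values on either side of 0 stood side by side, none past the test. Uqcrb, a small subunit near the ubiquinone site, was read at 434, 443 and 395 in WT and at 582, 521 and 493 in KO. Every KO value lay above every WT value, with a log2 fold change of 0.32 ± 0.12 (adjusted p = 0.156). Uqcr10, another small subunit, was read at 1098, 1102 and 1014 in WT and at 987, 845 and 877 in KO. Every KO value lay below every WT value (-0.25 ± 0.11, adjusted p = 0.236). Uqcrq, named for its binding of ubiquinone, was read at 2808, 2927 and 2477 in WT and at 2542, 2536 and 2164 in KO (-0.18 ± 0.11, adjusted p = 0.403), with the groups overlapping.

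Of the catalytic and core subunits of complex III, Uqcrc1, Cyc1 and Uqcrfs1 were the lowest per kb of the 9, while Uqcrc2 was not. Uqcrc1, a core protein, was read at 97.6, 88.3 and 65.6 in WT and at 60.9, 102 and 183 in KO. KO 3 alone was high and KO 1 was the lowest of all, and the log2 fold change of 0.34 ± 0.30 (adjusted p = 0.614) became -0.06 without KO 3. Cyc1, the cytochrome c1 that hands electrons to cytochrome c, was read at 161, 109 and 84.0 in WT and at 99.8, 125 and 122 in KO. The KO values lay inside the WT range (0.02 ± 0.22, adjusted p = 0.983). Uqcrfs1, the Rieske iron-sulfur protein, was read at 350.4, 282 and 311 in WT and at 347, 334 and 357 in KO (0.14 ± 0.13, adjusted p = 0.63). The remaining members, Uqcrc2, Uqcrh and Uqcr11, had log2 fold changes of -0.20, -0.08 and -0.11, and Uqcrc2 was read at 1450 in KO 1 against 1958 to 2191 in the other 5 libraries.

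Per kb, Uqcrq was the highest of complex III at 6360 normalized reads and Uqcrc1 the lowest at 60.2, with Cyc1 at 76.8 and Uqcrfs1 at 242. Uqcrc1 and Cyc1 overlapped between libraries. The 2 core proteins, Uqcrc1 and Uqcrc2, which are present in equal numbers in the complex, stood at 60.2 and 1040 per kb. The value of Uqcrq depends on the transcript taken for its length: with the longest principal transcript of GENCODE it was 1690 per kb, below Uqcrh at 4360.

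Cytochrome c is the soluble carrier between complexes III and IV, and its release from mitochondria starts apoptosis. Cycs was read at 1147, 1206 and 1200.0 in WT and at 1393, 1471 and 1287 in KO. Every KO value lay above every WT value, and the log2 fold change was 0.22 ± 0.10 (adjusted p = 0.267), which did not pass. Reads of Cycs can be placed on near-identical copies, of which Gm10053 is listed as a gene of its own with more reads than Cycs: 2767, 2937 and 2504 in WT and 2766, 2614 and 2273 in KO. With the 2 added, the log2 fold change was 0.00 (adjusted p = 0.993). Of the windows of Cycs 29.5% matched another gene, and whether reads were misplaced between these rows was not tested. Per kb Cycs stood at 411 normalized reads.

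**Figure D2:**
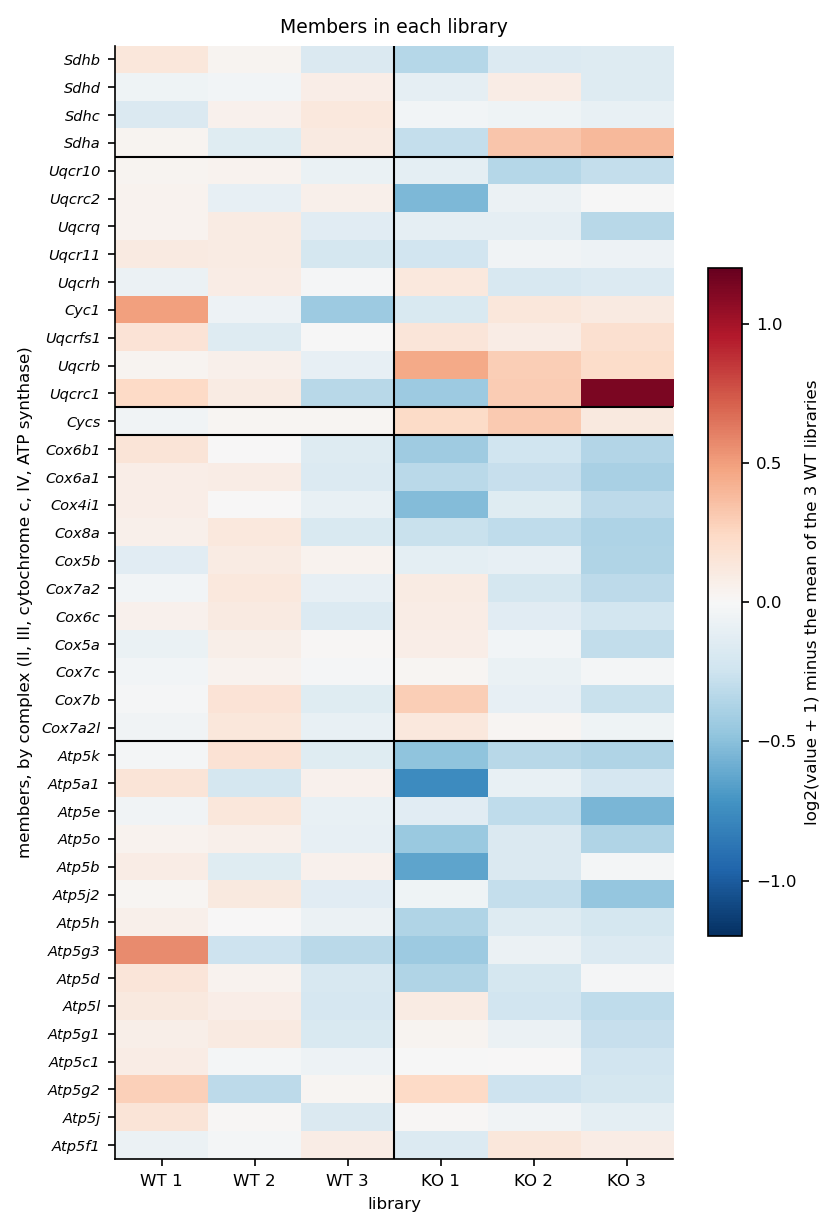
Each cell is log2(value + 1) of a gene in a library minus the mean of the 3 WT libraries (colour scale, blue lower and red higher), with genes as rows by complex and libraries as columns. KO 1 is darkest blue for Atp5a1, Atp5b, Uqcrc2 and Cox4i1, KO 3 for Atp5e and Atp5j2, and single red cells mark Uqcrc1 in KO 3 and Atp5g3 in WT 1.

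In complex IV 4 of the 11 members had all KO values below all WT values, against 11.7% of all genes. They were Cox4i1, Cox6a1, Cox6b1 and Cox8a. Cox6a1, an inner-membrane subunit, was read at 1712, 1720.0 and 1445 in WT and at 1293, 1339 and 1241 in KO (log2 fold change -0.33 ± 0.11, adjusted p = 0.104). Cox4i1, the ubiquitous form of the largest nuclear subunit, was read at 4286, 4074 and 3798 in WT and at 2821, 3655 and 3254 in KO (-0.33 ± 0.11, adjusted p = 0.118). Cox6b1, which faces the intermembrane space near the cytochrome c site, was read at 1087, 976 and 875 in WT and at 725, 824 and 765 in KO (-0.34 ± 0.11, adjusted p = 0.119). In these 3 genes WT 3 was the lowest WT library and lay 3.92% to 7.95% above the highest KO library. Cox8a, a small inner-membrane subunit, had -0.32 ± 0.11 (adjusted p = 0.125).

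The other 7 members of complex IV had log2 fold changes between -0.19 and 0.03. Cox5b, the zinc-binding matrix subunit, was read at 1010, 1186 and 1141 in WT and at 1023, 1036 and 864 in KO (-0.19 ± 0.11, adjusted p = 0.406). Cox5a, its partner on the matrix side, was read at 3071, 3416 and 3276 in WT and at 3425, 3186 and 2653 in KO (-0.08 ± 0.11, adjusted p = 0.764), where KO 1 was the highest of the 6 and KO 3 the lowest. Cox7b showed the same order of KO libraries (1868 in KO 1, 1424 in KO 2 and 1267 in KO 3) around a WT mean of 1526 ± 163 (SD, n = 3). Cox7c stood at 1203 ± 32.7 and 1182 ± 39.8, and Cox6c at 2184 ± 207 and 2049 ± 232.

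Cox7a2 and Cox7a2l are related genes with different places: Cox7a2 is a subunit of complex IV, and Cox7a2l (SCAF1) can replace it where complexes III and IV join in supercomplexes, a role for which C57BL/6 mice are known to carry a shortened protein. Cox7a2 was read at 2616, 2929 and 2507 in WT and at 2869, 2310.0 and 2148 in KO (-0.14 ± 0.12, adjusted p = 0.575). Cox7a2l was read at 2450.0, 2773 and 2369 in WT and at 2756, 2565 and 2433 in KO (0.03 ± 0.10, adjusted p = 0.913). For both genes the groups overlapped. Per kb Cox7a2 stood at 3890.0 normalized reads and Cox7a2l at 2380.0. In complex IV as a whole Cox5a (4920.0) and Cox4i1 (4900.0) were the highest per kb, with overlapping libraries, and Cox5b (1210.0) the lowest.

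**Figure D3:**
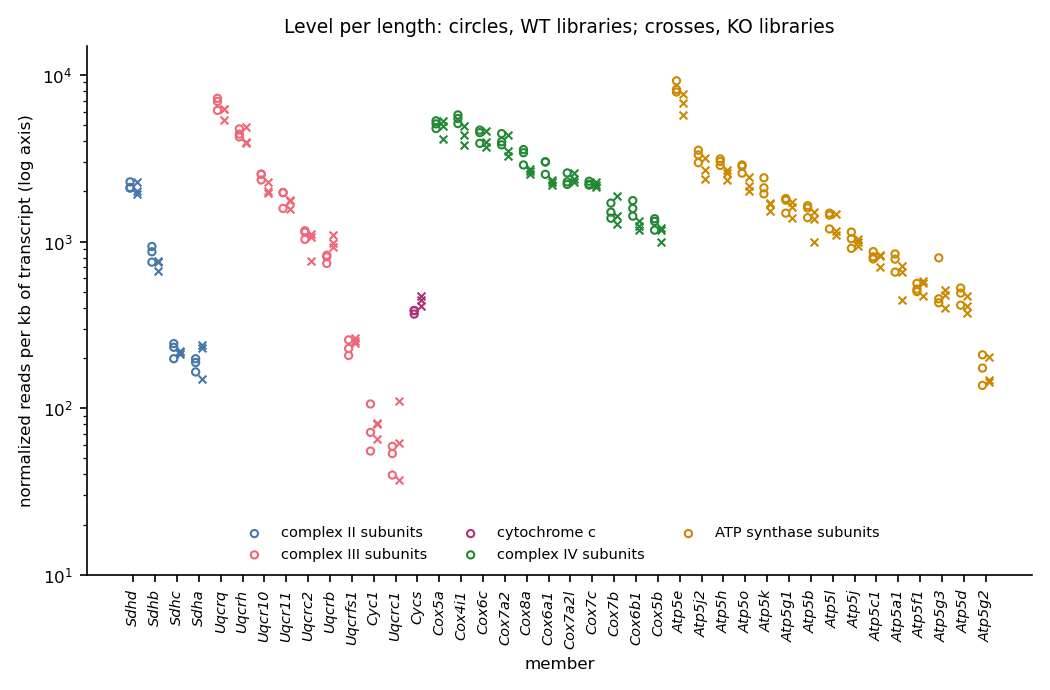
Normalized reads per kb of transcript (log y axis) for each gene in each library (WT, circles, and KO, crosses), sorted by the mean within each complex. Atp5e (7570) and Uqcrq (6360) are the highest and Uqcrc1 (60.2) and Cyc1 (76.8) the lowest.

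In the ATP synthase 6 of 15 members lay lower in KO at an unadjusted p under 0.05 (limma), and 0 higher. For complex IV it was 4 of 11 lower, and over all genes 8.83% lower. Atp5k, subunit e of the membrane part, which helps the enzyme form dimers, was read at 781, 894 and 716 in WT and at 568, 631 and 619 in KO. Every KO value lay below every WT value, with the log2 fold change furthest from 0 of the 40 genes (-0.39 ± 0.12, adjusted p = 0.08). Atp5o, the oligomycin sensitivity protein that ties the catalytic head to the stalk, was read at 2374, 2417 and 2152 in WT and at 1694, 2056 and 1801 in KO (-0.33 ± 0.11, adjusted p = 0.107). Atp5e, subunit epsilon of the central stalk, was read at 3440.0, 3878 and 3321 in WT and at 3212, 2859 and 2415 in KO (-0.33 ± 0.12, adjusted p = 0.129). In both genes the groups did not overlap, but the lowest KO library was KO 1 for Atp5o and KO 3 for Atp5e.

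The catalytic head is built of the alpha and beta subunits, Atp5a1 and Atp5b. Their log2 fold changes were -0.35 ± 0.15 and -0.28 ± 0.14 (adjusted p = 0.227 and 0.303), and KO 1 set much of both values: Atp5a1 was read at 1108 in KO 1 against 1753 and 1623 in KO 2 and KO 3, and Atp5b at 1899 against 2610.0 and 2899. The WT values of Atp5b were 3138, 2656 and 3056, so the groups overlapped. Subunit gamma (Atp5c1) had -0.08 and subunit delta (Atp5d) -0.19. Subunit f (Atp5j2) had -0.27 (adjusted p = 0.24), subunit g (Atp5l) -0.15 and coupling factor 6 (Atp5j) -0.05. Without KO 1 the values of Atp5a1 and Atp5b were -0.15 and -0.10, and that of Uqcrc2 in complex III was -0.04. In the same fit Atp5e (adjusted p = 0.0208) and Atp5j2 (0.0377) passed the limma test, 5.0% of the 40 genes, where 889 genes or 4.94% of all passed.

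The peripheral stalk keeps the head from turning with the rotor. Of its subunits b and d, Atp5f1 was read at 804, 830.4 and 900.3 in WT and at 754, 929.7 and 898 in KO (0.02 ± 0.11, adjusted p = 0.948), the only ATP synthase gene above 0. Atp5h had all KO values (1459 to 1682) below all WT values (1787 to 1956), with a log2 fold change of -0.24 ± 0.10 (adjusted p = 0.217).

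Subunit c, which forms the proton-driven ring, is made from 3 genes with the same mature protein. Atp5g1 was read at 1057, 1081 and 885 in WT and at 1026, 953 and 829 in KO (-0.11 ± 0.12, adjusted p = 0.707). Atp5g3 was read at 570.0, 324 and 307 in WT and at 284, 364 and 343 in KO. WT 1 alone was high, and the log2 fold change of -0.22 ± 0.19 (adjusted p = 0.6) became 0.06 without it. WT 1 was also the library with the most theca, luteal and stromal marker reads, whose part in this value was not tested. Atp5g2 was read at 92.0, 60.4 and 76.6 in WT and at 89.3, 63.4 and 64.7 in KO (-0.07 ± 0.22, adjusted p = 0.91). Per kb the 3 genes stood at 1630.0 (Atp5g1), 511 (Atp5g3) and 169 (Atp5g2), with Atp5g2 the lowest of the ATP synthase and Atp5e (7570.0) the highest, but Atp5g1 stood at 206 with its longest principal transcript.

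Processed copies of respiratory genes are common in the mouse genome, and reads from a gene can be placed on its copies. For 12 of the 40 genes over 20% of their 75-base windows also matched another gene with at most 1 mismatch, so their values are uncertain: Uqcrc2, Uqcrb, Cycs, Cox5a, Cox5b, Cox7c, Atp5f1, Atp5g1, Atp5g2, Atp5h, Atp5l and Atp5o. All windows of Atp5g2 matched its copy Gm10175, which was read at 1193, 1097 and 1014 in WT and at 942, 898 and 924 in KO, far above Atp5g2 itself. Its groups did not overlap (-0.25 ± 0.11, adjusted p = 0.217). In all 20 copies matched at least 15% of the windows of a gene without overlapping it, and Gm6822 among them was too low to be tested. Of these a pair passed the test where the gene itself did not, and of all genes 3.28% passed. Gm10250, a copy of Atp5h, was read at 1486, 1600.4 and 1531 in WT and at 1119, 1171 and 1157 in KO (-0.42 ± 0.10, adjusted p = 0.0317). Gm12338, a copy of Cox7c, was read at 172, 222 and 238 in WT and at 96.6, 127 and 115 in KO (-0.89 ± 0.17, adjusted p = 0.0128). The call for Gm10250 was lost without any 1 of WT 1, WT 2, WT 3, KO 2 and KO 3 (adjusted p = 0.0579 to 0.131) and with the values rescaled to total reads (0.0515) or by quantiles (0.0552), and that for Gm12338 without WT 2 or WT 3 (0.0689 and 0.0887). Both were also lost after a correction for GC content and length (0.227 and 0.214). Gm10221, a copy of Atp5l with a log2 fold change of -0.58, did not pass with limma (adjusted p = 0.0503) but did with edgeR (0.0438) and DESeq2 (0.0255). These copies were named after their values were seen.

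In a step chosen after seeing the data, the values of every copy that matched at least 15% of the windows of a gene, and did not overlap it, were added to that gene. This added 20 rows to 12 genes, the same as above but with Uqcr11 and Cox7a2l in place of Uqcrc2 and Cox5a, and still none of the 40 passed. The median of the 40 moved from -0.13 to -0.19. Atp5h went from -0.24 to -0.32 (adjusted p = 0.0788), Atp5g2 from -0.07 to -0.24, Atp5g1 from -0.11 to -0.21, Atp5l from -0.15 to -0.28 and Cox7c from -0.03 to -0.12. Uqcrb stood at 0.26 in place of 0.32. Over the 28 genes with few or no shared windows the median was -0.16, and 23 of them lay below 0.

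**Figure D4:**
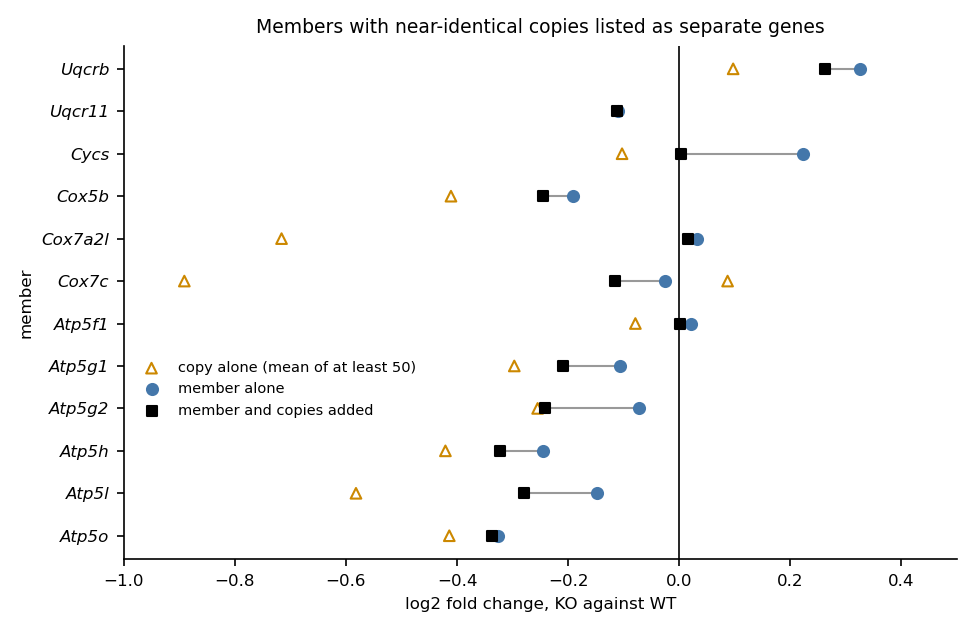
Log2 fold change (x axis, KO against WT) of the 12 genes with a copy that matched at least 15% of their windows: the gene alone (circles), its copies alone where they averaged at least 50 normalized reads (triangles), and both added (squares). Adding the copies moves Cycs from 0.22 to 0.00 and Atp5g2 from -0.07 to -0.24.

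The fold changes went with transcript length. The 40 genes have short transcripts, with a median of 777 bases (371 for Atp5k to 3171 for Sdhc) against 2229 over the genes tested. Of the 25 under 1000 bases, 24 lay below 0 (96.0%), with a median of -0.19. Among all 1131 coding genes of that length 63.4% lay below 0 and the median was -0.10. Of the 11 genes from 1000 to 2000 bases 6 lay below 0 (median -0.02), where all coding genes of that length had -0.02, and of the 4 longer ones 2 did (median 0.04 against 0.01).

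The same pattern differed from library to library. Across the 40 genes, the Spearman correlation of length with a gene's deviation from its mean was -0.17, -0.51 and 0.17 in WT 1 to 3 and -0.34, 0.6 and 0.51 in KO 1 to 3, a description over genes that share a library. Over the 18133 tested genes with a known length it was -0.04, -0.13 and -0.13 in WT and 0.02, 0.06 and 0.16 in KO. In WT 3 and KO 1 its sign was thus not that of the 40 genes. The median deviation of the genes under 1000 bases from the WT mean was 0.05, 0.08 and -0.14 in WT and -0.12, -0.17 and -0.29 in KO, so WT 3 lay below KO 1. When a smooth trend on GC content and length over all genes was removed, 20 of the 40 lay below 0 and the median was 0.00. The part of length or GC content in the original values was not tested further.

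**Figure D5:**
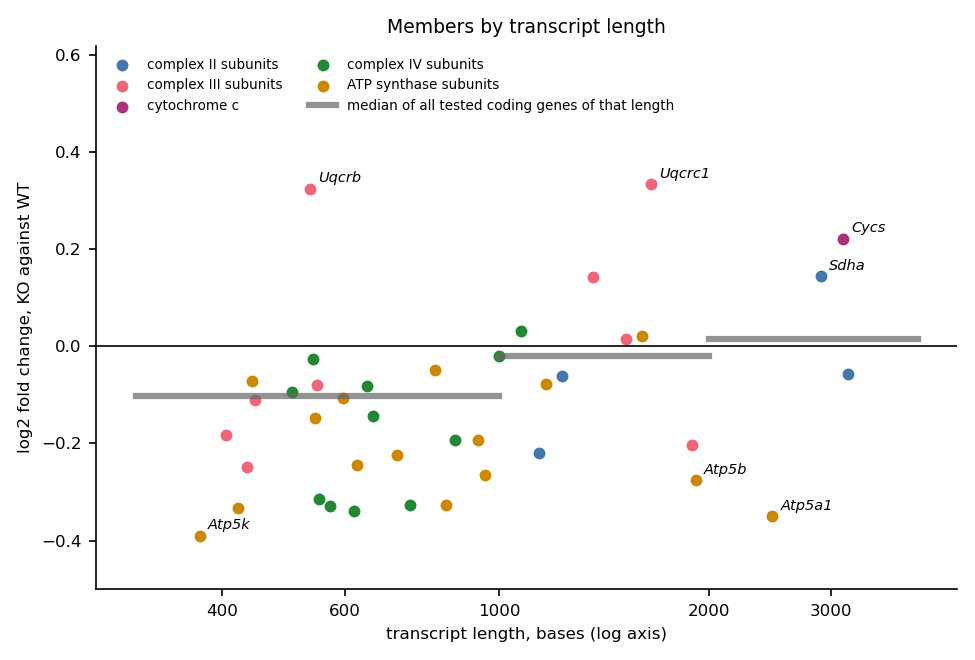
Log2 fold change (y axis) against transcript length (log x axis) for the 40 genes, coloured by complex. Grey bars give the median of all tested coding genes under 1000 bases (-0.10), from 1000 to 2000 (-0.02) and above that, up to 4000 bases (0.01); Uqcrb is the only one of the 25 short genes above 0.

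The median also moved with single libraries and with the scaling. The median was -0.12 without WT 1, -0.19 without WT 3 and -0.07 without KO 3, and 30, 33 and 32 of the 40 lay below 0. Scaled to the total reads of each library, 28 lay below 0 with a median of -0.07, where all genes had 0.03. That scaling also moved the split of all called genes, of which 57.1% were higher in KO as deposited and 73.0% when so scaled, against 46.1% after the correction for GC content and length.

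Complex I, which feeds the chain from NADH, gave similar values. None of its 36 listed nuclear subunits passed the test, 32 lay below 0 (88.9%) and the median was -0.16. The smallest p-values were those of Ndufv1, the flavoprotein that binds NADH, read at 634, 692 and 688 in WT and 514, 480 and 546 in KO (-0.39 ± 0.11, adjusted p = 0.0715, or 0.0341 with DESeq2), and of Ndufa3 (-0.42 ± 0.14, adjusted p = 0.12). Ndufa4, now placed in complex IV, had -0.12 (adjusted p = 0.602). Both lists share the same libraries, so the values stand side by side without a test of their difference.

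Genes that build the complexes gave no common direction. Of 36 assembly factors 17 lay below 0, the median was 0.04, and 2 passed the test (5.56%, against 3.28% of all genes), both higher in KO. Hccs, which attaches heme to cytochrome c and cytochrome c1, was read at 13.3, 19.5 and 5.54 in WT and at 33.6, 35.9 and 44.1 in KO (1.64 ± 0.40, adjusted p = 0.0367). Coa4, a complex IV assembly factor of the intermembrane space, was read at 122, 139 and 125 in WT and at 181, 224 and 182 in KO (0.60 ± 0.16, adjusted p = 0.0493). In both genes every KO value lay above every WT value. The call for Hccs was lost without WT 1, WT 3, KO 2 or KO 3 (adjusted p = 0.0623 to 0.138), and that for Coa4 without any 1 library other than KO 1 (0.0739 to 0.182). Quantile normalization also ended both calls (0.0554 and 0.0713), and a pseudocount of 0.5 that of Coa4 (0.0529). Hccs overlaps genes of the other strand, and the libraries keep no strand. So do Sdha, Uqcrc2, Uqcrb, Uqcrh, Cox4i1, Cox5a, Cox6c, Atp5a1, Atp5d, Atp5f1, Atp5j, Atp5l and Atp5o of the subunit genes, and Ndufa3, Cox6a2 and Mfn2. On its own strand Atp5o, listed at chr16:91684398-91931687, also overlaps Cryzl1, Donson and Gm25245. Cox4i1 overlaps Gm20388 on its own strand. Cox7c, Atp5b, Atp5c1 and Atp5g2 likewise overlap genes of their own strand. Emc8, which overlaps Cox4i1, was read at 2033, 2381 and 2180 in WT and at 1999, 1907 and 1712 in KO. It matched 11.1% of the windows of Cox4i1. Whether reads were misplaced between such genes was not tested. The 4 ATP synthase accessory genes had a median of 0.05, with Usmg5 at 0.18 and Atp5s at 0.15 as those of smallest p (adjusted p = 0.664 and 0.799).

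Among 11 regulators of respiratory gene transcription that were tested, 10 lay above 0 (90.9%, against 48.7% of all genes) and 2 passed (18.2%, against 3.28%). Their median length was 3656 bases. The coding genes from 2000 to 4000 bases had a median log2 fold change of 0.015, and those over 4000 bases 0.06. Among the regulators above 0, Nrf1 and Gabpb1 stood at 0.003 and 0.009. Ppargc1a and Gabpa, also above 0, had few reads, at 0 to 12.7 and 4.62 to 28.8 normalized reads. Gabpa overlaps Atp5j on the other strand, and 6.7% of the windows of Atp5j matched it. Tfam, which packages and transcribes mitochondrial DNA, was read at 102, 109 and 78.5 in WT and at 193, 168 and 233 in KO (1.03 ± 0.18, adjusted p = 0.00739). Yy1, a zinc-finger factor with sites in many respiratory promoters, was read at 8.87, 12.1 and 11.1 in WT and at 32.6, 25.4 and 45.0 in KO (1.57 ± 0.35, adjusted p = 0.0245). The call for Tfam was lost without WT 3 (adjusted p = 0.0561), and that for Yy1 without WT 1, WT 2, WT 3 or KO 3 (0.0597 to 0.0965). Yy1 had only 8.87 to 45.0 normalized reads, and log2(value + 1) gave it a smaller change than edgeR (1.67) or DESeq2 (1.68). For Hccs, another low gene, it gave a larger one (1.64 against 1.56 and 1.57).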

How the data were processed

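Smart-Seq2 amplifies full-length cDNA from poly(A) RNA, and Nextera XT libraries keep no strand and no molecular identifiers. They were sequenced as 75-base pairs, per the labels' protocols. The submitters' processing notes name cutadapt, FastQC, STAR, DESeq, DESeq2, GRCm38 and mm10. Their versions and the annotation used are not stated in the labels or headers. The authors deposited normalized read counts, a signal in which reads are divided by a size factor, per the file headers (Partek and DESeq2 are named there). Values rise in steps of 1 read, worth 0.899 to 1.11 depending on the library, and dividing by the step gave whole reads for 100% of values within 0.1 reads. Gene positions in the table match GRCm38.

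The 18762 genes that reached 1 in 3 or more libraries were tested as log2(value + 1) with limma-trend (limma 3.58.1, R 4.3.3), 3 KO against 3 WT libraries, with no covariate, Benjamini-Hochberg adjustment and a threshold of 0.05. Fold changes are on that scale and errors are standard errors unless SD is written. On the recovered reads, edgeR 4.0.16 and DESeq2 1.42.0 were run as alternatives. The fit was tested on simulated data. Lengths are those of GENCODE M21 principal transcripts.

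The members, gene lists and motifs were chosen with earlier results of these data known. Genes given with the value of every library are, in each complex, the 3 of smallest p and the highest and lowest per length, then Cycs, every member above 0, Atp5g1 to Atp5g3, Cox7a2 and Cox7a2l. From other lists they are the members past the threshold, or else the 2 of smallest p. Atp5b, the copies and the markers given by library were added after their values were seen. Marker lists covered oocyte, granulosa, theca and luteal, stromal, immune, endothelial and surface epithelial genes. Immune markers summed to 370 to 603 in each library, most of it C1qb, endothelial ones to 168 to 260 and epithelial ones to 14.8 to 29.9.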

Additional observations from a re-analysis of the deposited data

How the results depend on the processing

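The counts and median over the 40 genes, the count over all genes and the fold changes of 62 genes were recomputed under 17 alternatives. Medians per complex, length classes and promoter counts were not. The number of the 40 genes that passed stayed at 0 except with DESeq2, which called 3, and without KO 1, which called 2, so that leaving out 1 library gave 0 to 2. The number below 0 was 30 to 33 without 1 library, and 20 after a correction for GC content and length. The median was -0.19 (without WT 3) to -0.07 (without KO 3) when 1 library was left out and 0.002 after that correction. Of all genes, 112 to 889 passed without 1 library in place of 615, and without WT 1, 2 or 3 and KO 2 or 3 the counts were 262, 189, 112, 321 and 379. Fewer libraries enter each of these fits, and the cause of the higher count without KO 1 (889) was not tested.

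The labels do not say whether same-numbered libraries are paired. Their deviations correlated at -0.08, -0.02 and -0.04, which cannot show whether they share an animal or a preparation. With the replicate number as a block, 0 of the 40 genes and 421 of all genes passed, 32 lay below 0 and the median was -0.13. The block also took the calls of Coa4 (adjusted p = 0.0751) and Gm10250 (0.0706).

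Signs held in every alternative for 19 of the 40 genes, and none of the sign changes concerned a gene that had passed. Among other genes, Gm10175 stood at 0.087 and Atp5s at -0.019 after the correction for GC content and length, and Usmg5 at -0.003 to 0.292 without 1 library. Once GC content and length were corrected for, 12 genes turned: Uqcrq to 0.20, Uqcrh to 0.081, Uqcr10 to 0.062, Uqcr11 to 0.27, Cox5a to 0.027, Cox6c to 0.068, Cox7a2 to 0.006, Cox7c to 0.084, Atp5d to 0.049, Atp5g1 to 0.15, Atp5g2 to 0.27 and Atp5j to 0.13. Scaled to each library's total reads, Sdhc was 0.002, Cox7b 0.038, Cox7c 0.032 and Atp5j 0.009. With quantile normalization Sdhd was 0.008, Cox7b 0.017, Cox7c 0.018 and Cyc1 -0.039. Cyc1 was -0.02 with edgeR and with DESeq2 (-0.021 and -0.022). Without 1 library the ranges that crossed 0 were -0.14 to 0.005 for Sdhc, -0.064 to 0.72 for Uqcrc1, -0.20 to 0.26 for Cyc1, -0.16 to 0.023 for Cox5a, -0.015 to 0.099 for Cox7a2l, -0.18 to 0.10 for Cox7b, -0.12 to 0.001 for Atp5c1, -0.037 to 0.11 for Atp5f1, -0.23 to 0.071 for Atp5g2, -0.39 to 0.06 for Atp5g3 and -0.13 to 0.028 for Atp5j. The causes were not tested.

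Intervals cover the spread between 3 pools of 5 oocytes, and reads without molecular identifiers are not independent molecules. Levels per length depend on the transcript chosen.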

Other observations

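Several subunits have forms that are known from other tissues. Cox6b2, known as the form of sperm and testis, was read at 844, 936 and 814 in WT and at 742, 634 and 641 in KO (log2 fold change -0.36 ± 0.11, adjusted p = 0.0927), with no overlap of the groups. Per kb of transcript it stood near the common form Cox6b1. The ratio to Cox6b1 was 1.03, 1.28 and 1.24 in WT 1 to 3 and 1.36, 1.02 and 1.11 in KO 1 to 3. These ratios take 465 bases for Cox6b2, and all would be lower with its longest principal transcript of 585 bases. DESeq2 put Cox6b2 past the threshold (adjusted p = 0.0492), and so did limma without KO 1 (0.0261). The other pairs were unequal in every library. The ratio of Cox6a2, the form of heart and skeletal muscle, to Cox6a1 was 0.0881 to 0.119, and that of Cox4i2, the form of lung, to Cox4i1 was 0.00444 to 0.00922. Cox4i2 was read at 33.3, 28.8 and 34.2 in WT and at 19.96, 15.8 and 18.9 in KO (-0.79 ± 0.30, adjusted p = 0.178). All 6 such genes that were tested lay below 0, against 51.3% of all genes, and none passed with limma. An unadjusted p under 0.05 was reached by 2, both lower in KO, against 8.83% of all genes. Their median length was 560 bases, and 63.4% of all coding genes under 1000 bases lay below 0. Among the 6, Cox7a1 and Cox8c had few reads, at 0 to 9.98 and 9.89 to 17.5 normalized reads.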
